A study of Mus musculus with 8 samples.

Results

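The genes described here are 9 regulators of muscle formation, chosen by name: the myogenic regulatory factors Myf5, Myod1, Myog and Myf6, the Mef2 factors Mef2a, Mef2c and Mef2d, and the myoblast fusion genes Mymk and Mymx. All 9 were found, by gene identifier, among the 57180 genes of the deposited tables. RNA was sequenced from muscle stem cells, progenitors that reside beside the fibres, which had been sorted by flow cytometry and not cultured. The 4 control libraries (replicates 2, 5, 7 and 8) are labelled WT. The 4 others (replicates 5, 6, 7 and 8) are titled RhoA het, are listed as RhoA knockdown in the genotype field, and carry 1 floxed Rhoa allele in the stem cells (SC-RhoAfl/+), so RhoA, a small GTPase acting on the actin cytoskeleton, should be reduced and not absent. The labels do not name the Cre driver, nor the age or sex of the mice, and do not say whether each library comes from a separate animal, so p-values measure the spread between these libraries.

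The myogenic regulatory factors are basic helix-loop-helix proteins that pair with E proteins and bind E-boxes in the regulatory DNA of muscle genes. Myf5 and Myod1 mark commitment to the muscle lineage, Myog drives terminal differentiation, and Myf6 (also called MRF4) acts in differentiating cells and persists in muscle fibres. Mef2 factors are MADS-box proteins that cooperate with them and are also present in many other cell types. Mymk (myomaker) and Mymx (myomixer, or myomerger) are membrane proteins that carry out the fusion of myoblasts into fibres. Resting muscle stem cells are known for Pax7 and Myf5, and Myog and the fusion genes are normally switched on only when cells leave the cycle to differentiate.

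The DNA just before the start site is shown for Myog and Myf5, because their levels varied widely between libraries and did not rise and fall together. RefSeq windows were found for 5 of the 9 genes (Myog, Myf5, Mef2a, Mef2c and Mef2d), on build GRCm38.p6, and each stretch is the 250 bases before the annotated start, 5′ to 3′ on the gene's strand. Capitals mark E-boxes, the letters that basic helix-loop-helix factors can bind, searched on both strands as CANNTG,.

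Myog, chr1:134289754-134290003, plus strand: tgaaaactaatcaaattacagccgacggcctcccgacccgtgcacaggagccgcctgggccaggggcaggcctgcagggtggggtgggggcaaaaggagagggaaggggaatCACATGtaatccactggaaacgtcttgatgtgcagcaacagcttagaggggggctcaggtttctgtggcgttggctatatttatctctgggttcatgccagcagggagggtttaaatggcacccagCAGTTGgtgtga

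Myf5, chr10:107486135-107486384, minus strand: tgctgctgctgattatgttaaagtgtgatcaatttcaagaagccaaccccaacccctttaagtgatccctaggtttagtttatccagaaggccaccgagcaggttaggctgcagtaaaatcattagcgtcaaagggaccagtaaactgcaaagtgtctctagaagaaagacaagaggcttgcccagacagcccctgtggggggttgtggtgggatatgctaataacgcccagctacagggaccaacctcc

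The Myog window held 2 E-boxes, CACATG at positions -138 to -133 and CAGTTG at -12 to -7 (counted back from the start site). The Myf5 window held none. Of 32841 windows of the same length for all genes, 66.2% held an E-box, so its presence at Myog is common. The MEF2 box and the CArG box, bound by Mef2 proteins and by serum response factor, were found by their consensus letters, on both strands, in 1.69% and 1.47% of windows and in none of the 7 windows of these genes. A match is only a run of letters. A missing match says nothing of binding elsewhere, or of sites in these windows that differ from the consensus by a letter or more.

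Libraries held 19138763 to 25606342 assigned fragments. Rhoa itself was covered by 6656 to 7273 fragments in control and by 5379 to 5706 in RhoA het libraries, and its level in CPM (counts scaled to library size, with TMM as a correction for library composition) was 324.0 ± 46.2 and 264.3 ± 14.4 (SD, n = 4 each), with overlapping groups. All 15 muscle stem cell markers were detected in every library. Control replicate 2 and RhoA het replicate 6 stood apart in sex, with 14358 and 14659 fragments on 4 Y-linked genes where the others had at most 2. RhoA het replicate 6 also had the highest summed level of 12 endothelial markers, 1153 CPM against 132.0 to 284.1 in the other libraries. The 10 fibro-adipogenic markers summed to 4854 to 13942 CPM in control and 8534 to 12532 in RhoA het, and none of them was at 0. In RNA from a mixture, fewer cells of a type and less RNA per cell cannot be told apart.

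Levels were first compared between genes in the deposited TPM, which are per length. Myod1 was the most abundant of the 9 in every library, at 1733 to 2991 TPM with a median of 2001, between ranks 35 and 78 of all genes. Myf5 followed at 244 to 1418 TPM with a median of 770, and lay below Myod1 in 8 of 8 libraries. Mef2d had a median of 52.0 TPM (39.7 to 59.2) and Mef2a one of 27.9 (21.2 to 49.1), in that order in all 8 libraries. Below them the order was less fixed. Myog had a median of 13.6 TPM but reached 123.6, and it was under Mef2a in 6 of 8 libraries. Myf6 (median 3.59), Mef2c (3.46) and Mymk (1.68) were not separable by rank, since Myf6 exceeded Mef2c in 5 libraries and Mef2c exceeded Mymk in 5. Mymx was lowest, at 0 to 0.831 TPM. These cells thus held Myod1 and Myf5 RNA at levels far above those of the differentiation and fusion genes.

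**Figure D1:**
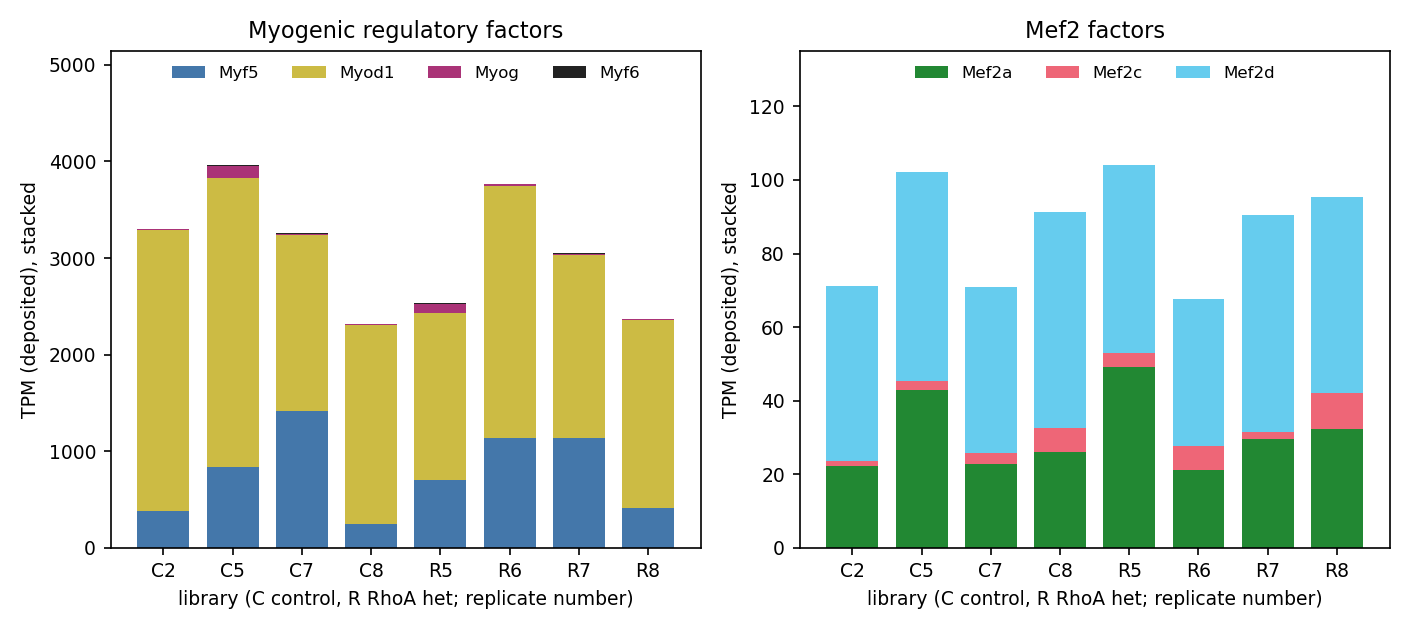
Deposited TPM stacked by gene for the myogenic regulatory factors (left) and the Mef2 factors (right), 1 bar per library, with C for control and R for RhoA het and the replicate number. Myod1 and Myf5 make up nearly the whole left stack in each library, and Mef2d is the largest part of the right stack in all 8 libraries, most narrowly in R5 (49.0% against 47.2% for Mef2a).

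Myf5 (ENSMUSG00000000435.2; mm39 chromosome 10, 107318769 to 107321995, minus strand) stood at 304.4, 487.8, 883.8 and 165.9 CPM in control replicates 2, 5, 7 and 8. Its level in RhoA het replicates 5, 6, 7 and 8 was 419.5, 771.7, 711.4 and 257.2 CPM. The groups overlapped over most of their range, and both libraries numbered 8 were the lowest of their group. Myod1 (ENSMUSG00000009471.5; chromosome 7, 46025898 to 46028523, plus strand) was steadier, at 2095, 1553, 1012 and 1252 CPM in the control libraries and 925.7, 1571, 1055 and 1088 in the RhoA het libraries, in the same order. Its highest library in CPM in each group was the one with Y-linked reads; in TPM control replicate 5 (2991) was above control replicate 2 (2913). The lowest RhoA het value, in replicate 5, lay below every control value, but the remaining values were interleaved.

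The balance of these 2 factors therefore differed between libraries. The ratio of Myod1 to Myf5 in TPM was 7.70, 3.56, 1.28 and 8.45 in the control libraries (2, 5, 7 and 8). It was 2.47, 2.28, 1.66 and 4.73 in the RhoA het libraries (5, 6, 7 and 8). Myf5 made up 21.7% ± 15.4 of the summed TPM of the 4 factors in control and 28.2% ± 8.30 in RhoA het (SD, n = 4 each), which overlapped (10.5% to 43.5% and 17.3% to 37.4%).

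Myog (ENSMUSG00000026459.6; chromosome 1, 134217727 to 134220286, plus strand) was at 3.06, 51.6, 5.20 and 6.66 CPM in control replicates 2, 5, 7 and 8, or 58, 1112, 139 and 142 fragments. In RhoA het replicates 5, 6, 7 and 8 it was at 40.1, 9.73, 6.09 and 4.46 CPM. Both libraries numbered 5 were far above the other 6, whatever their genotype, and the spread from lowest to highest was 16.9-fold. Myf6 (ENSMUSG00000035923.5; chromosome 10, 107328714 to 107330598, minus strand) lies 6718 bases from Myf5, with no annotated gene between them. It was near the limit of these libraries, with 20 to 88 fragments each. Its values were 1.42, 1.39, 3.29 and 0.938 CPM in control and 1.17, 2.89, 1.21 and 1.64 CPM in RhoA het. Control replicate 7 and RhoA het replicate 6, the highest for Myf6, were also the highest of their groups for Myf5.

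Mef2a (ENSMUSG00000030557.18; chromosome 7, 66880911 to 67022606, minus strand) was at 126.7, 175.4, 100.6 and 125.4 CPM in control replicates 2, 5, 7 and 8. It was at 206.8, 101.1, 130.6 and 142.6 CPM in RhoA het replicates 5, 6, 7 and 8. The highest library of each group was again the one numbered 5. Mef2d (ENSMUSG00000001419.18; chromosome 3, 88049679 to 88079393, plus strand) varied least of the 8 genes tested, by 1.48-fold across libraries, with 110.1, 94.6, 80.8 and 114.5 CPM in control and 87.4, 77.2, 106.3 and 95.4 CPM in RhoA het. Mef2c (ENSMUSG00000005583.17; chromosome 13, 83652153 to 83815199, plus strand) had 7.12, 11.6, 13.9 and 33.4 CPM in control and 17.9, 33.6, 8.14 and 46.7 CPM in RhoA het. Its highest library in each group was the one numbered 8, and RhoA het replicate 6 was as high as control replicate 8. The counts do not use strand. Mef2a overlaps 3 other annotated genes, and Mef2c and Mef2d overlap 1 each on the opposite strand, but none of these was assigned more than 185 fragments in a library. The other 6 genes overlap none.

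Of the fusion genes, Mymk (ENSMUSG00000009214.10; chromosome 2, 26951648 to 26962191, minus strand) had 20, 141, 3 and 35 fragments in the control libraries (2, 5, 7, 8) against 109, 16, 13 and 12 in the RhoA het libraries (5, 6, 7, 8). In CPM these were 1.05, 6.54, 0.112 and 1.64 in control and 5.11, 0.759, 0.582 and 0.616 in RhoA het. The libraries numbered 5 were the highest of both groups, and control replicate 7 was at 3 fragments. Mymx (ENSMUSG00000079471.5; chromosome 17, 45911897 to 45913028, minus strand) had 2, 4, 0 and 0 fragments in control and 3, 0, 0 and 5 in RhoA het. A count of 0 allows up to 3 fragments, or 0.112 to 0.142 CPM in the 4 libraries at 0 (counting error only), so its presence there was not detectable at this depth. It failed the filter on low counts and was not tested.

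**Figure D2:**
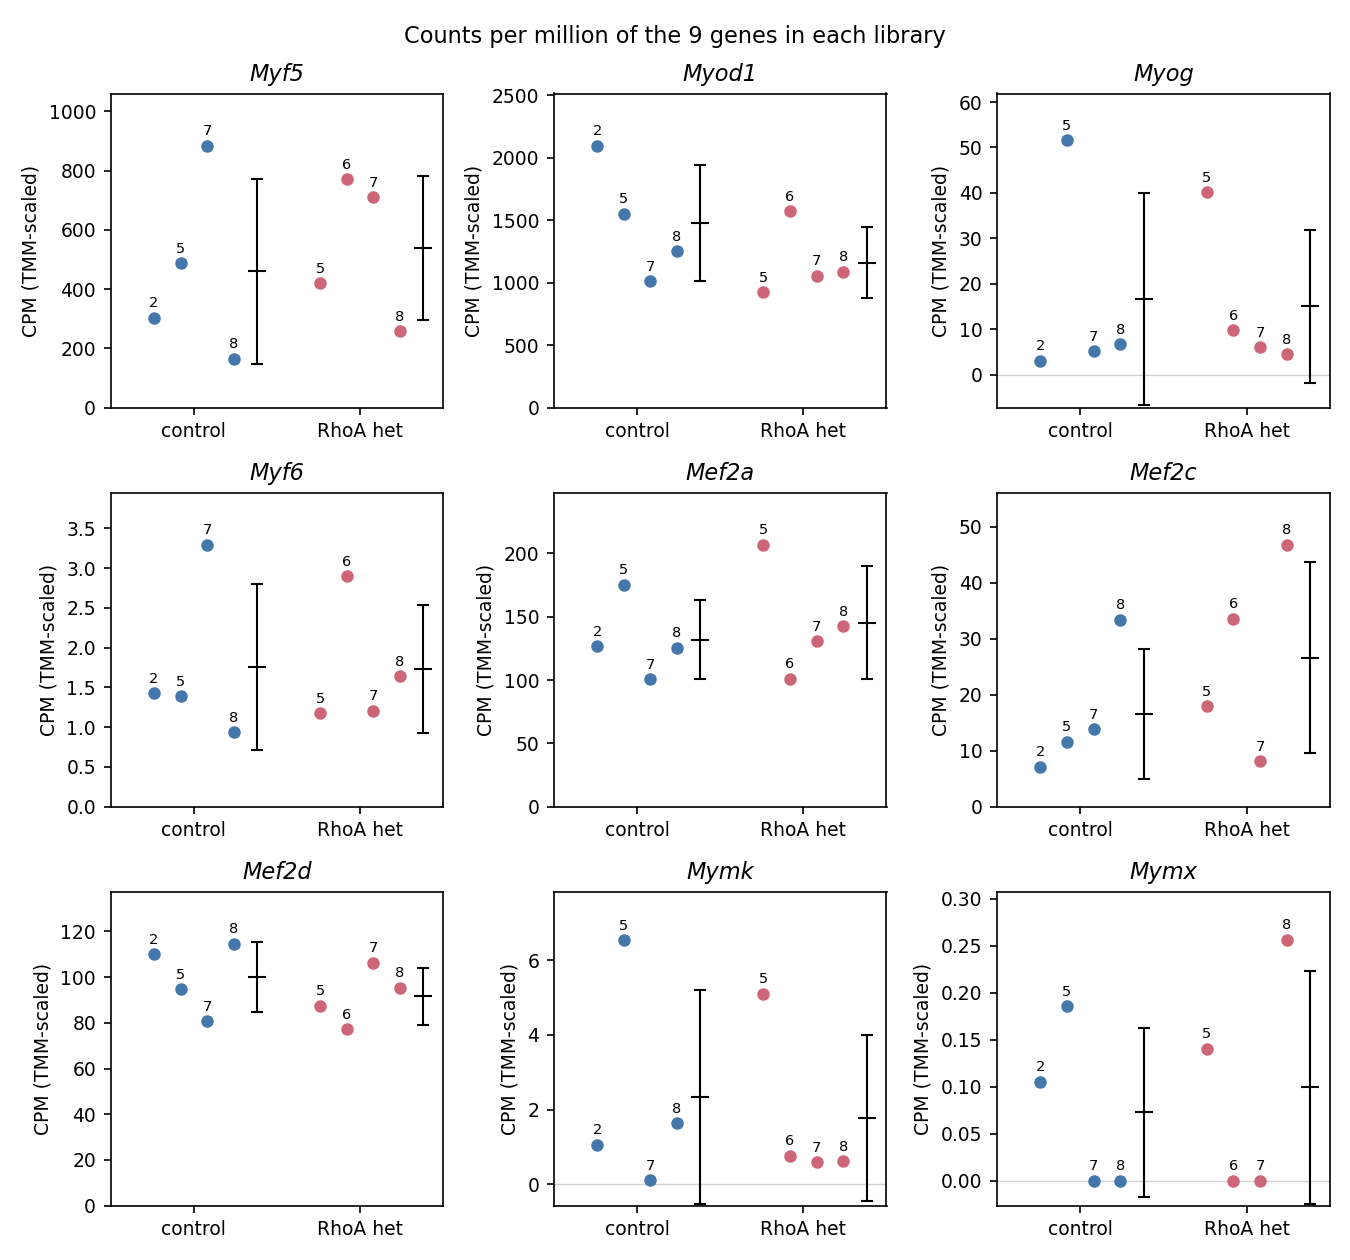
CPM of each gene in every library, with the replicate number above each point, and the mean and SD of each group (n = 4) as a black bar beside the points. The axes are linear and differ between panels. Control and RhoA het overlap in every panel, and the libraries numbered 5 are the highest of their group for Myog, Mef2a and Mymk.

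The comparison of RhoA het with control asks which genes change when RhoA activity is reduced. None of the 8 tested genes passed an adjusted p of 0.05 (edgeR quasi-likelihood test over 15660 genes, Benjamini-Hochberg). Over all genes the share was 0%, and DESeq2 and limma also called 0 genes. At an unadjusted p under 0.05 the count was 0 of 8 against 2.38% of all genes, and 0 of 8 had groups that did not overlap against 1.81%. Myod1 was at 1478 ± 467 CPM in control and 1160 ± 283 in RhoA het (SD, n = 4 each); the difference was -0.35 log2 units (SE 0.25; 95% confidence interval -0.91 to 0.21; exact permutation p 0.314). Myf5 was at 460.5 ± 311 and 540.0 ± 243 CPM, with log2 fold change 0.23 (SE 0.50, interval -0.88 to 1.34). For Myf5 the direction turned without control replicate 8 (-0.051).

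The most precise estimates belonged to the Mef2 factors of stable level. Mef2d gave a log2 fold change of -0.13 (SE 0.15, interval -0.46 to 0.21), which bounds a change at 0.726 to 1.15 times the control level. Mef2a had one of 0.14 (SE 0.23, interval -0.39 to 0.66), and it turned to -0.084 without RhoA het replicate 5. The value for Mef2c was the largest, at 0.69 (SE 0.57, interval -0.59 to 1.97), from 16.5 ± 11.6 to 26.6 ± 17.0 CPM (SD, n = 4 each). It fell inside the spread between libraries (exact permutation p 0.400). Without control replicate 8 the log2 fold change of Mef2c was 1.29, with an unadjusted p of 0.042 in edgeR. No other alternative fit gave any of the 8 genes an unadjusted p under 0.05.

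Myog and Mymk could not be placed at all by this comparison. Myog was at 16.6 ± 23.3 CPM in control and 15.1 ± 16.8 in RhoA het, with log2 fold change -0.14 (SE 0.96, interval -2.29 to 2.02, or 0.204 to 4.04 times the control level). Without control replicate 5 it was 1.597, and without RhoA het replicate 5 it was -1.30. Mymk gave a log2 fold change of -0.40 (SE 1.04, interval -2.72 to 1.93), with 0.93 and -1.83 in the same 2 cases. Leaving out RhoA het replicate 6, 7 or 8 also turned Myog, to 0.022, 0.13 and 0.16. Myf6 gave a log2 fold change of -0.035 (SE 0.45), which became 0.46 without control replicate 7, 0.11 without RhoA het replicate 5 and 0.096 without RhoA het replicate 7. Adjusted p was 1 for all 8 genes in edgeR, and the exact permutation p lay between 0.314 and 0.971, where 0.0286 is the smallest that 70 assignments can give.

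**Figure D3:**
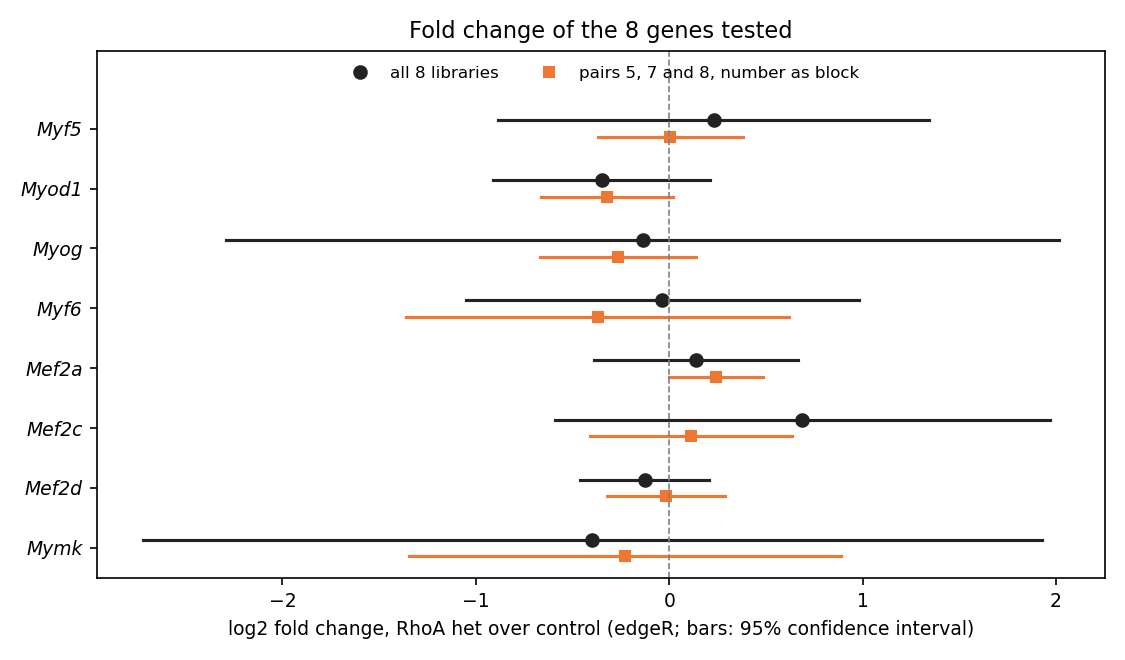
Log2 fold change of RhoA het over control with 95% confidence intervals for the 8 genes tested, from all 8 libraries (circles) and from the pairs numbered 5, 7 and 8 with the number as a block (squares). Every interval includes 0, and those of Myf5, Myog and Mymk are much narrower with the block.

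Because libraries that share a number resembled each other across the groups, the differences within numbers were examined too. Myf5 in the libraries numbered 5, 7 and 8 differed from control to RhoA het by -0.22, -0.31 and 0.63 on the log2 CPM scale, and Myog by -0.36, 0.22 and -0.57. Mef2a was the only 1 of the 8 whose differences had the same sign in all 3 pairs, at 0.24, 0.38 and 0.18. With the number as a block, Mef2a gave a log2 fold change of 0.24 (SE 0.11, interval -0.0027 to 0.49) and an adjusted p of 0.931 in edgeR. RhoA het replicate 6, which has no same-numbered partner, was among the lowest libraries for this gene. The block narrowed the standard error of Myf5 from 0.50 to 0.17 and that of Myog from 0.96 to 0.18, around log2 fold changes of 0.0064 and -0.26. Over the same 3 pairs Mef2c had 0.11 (SE 0.24) and Myod1 -0.32 (SE 0.16). None of the 8 genes passed with the block (lowest adjusted p 0.931 in edgeR), where 0.0127% of all genes did. At an unadjusted p under 0.05 the count with the block was 0 of 8, against 5.26% of all genes.

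The high Myog and Mymk levels in the libraries numbered 5 went together with high levels of cell cycle genes. The summed level of 20 cell cycle genes was 649.1 CPM in control replicate 5 and 493.3 CPM in RhoA het replicate 5, against 188.1 to 260.1 CPM in the other libraries. Of these 20 genes, 17 had their highest values in the 2 libraries numbered 5, a pattern seen in 11.4% of all 15372 genes with a symbol. Pearson's r of Myog with the single cell cycle genes had a median of 0.93 over 8 libraries and of 0.54 over the 6 without number 5, and that of Mymk had medians of 0.73 and 0.03. Part of the early differentiation list followed the same pattern. Of its 37 genes examined, 10 were highest in the libraries numbered 5. The r of all 37 with Myog had a median of 0.49 over 8 libraries (26 positive) and of 0.32 over the 6 without number 5. Among the 10 were subunits of the muscle acetylcholine receptor, named here after their values were seen. Chrnd was at 13.1 CPM in control replicate 5 and 15.0 CPM in RhoA het replicate 5, against at most 1.47 CPM elsewhere. Chrna1 was at 173.8 and 161.4 CPM, against at most 73.4 CPM. Chrnb1, a further subunit in the list, did not follow, at 226.5 and 217.8 CPM against 155.4 to 257.7 CPM elsewhere. The summed level of all 44 genes of the list, to which the abundant Des and Cdkn1a contribute most, was 3858 and 3885 CPM there, against 3410 to 4165 CPM in the others. Myofibre markers summed to 737.6 CPM in control replicate 5, the highest value. In RhoA het replicate 5 they summed to 359.0 CPM, inside the range of the others (144.6 to 684.1). The median r of Myog with the single myofibre genes was 0.62 over 8 libraries and 0.61 over the 6 without number 5. With the single endothelial genes the median r of Myog was 0.24 and 0.80 over the same libraries. Between Myog and Mymk, r was 0.81 over 8 libraries (Spearman's rho 0.64) and 0.04 without the libraries numbered 5, so it rested on those 2. The 10 fibro-adipogenic markers also had their highest sums in the 2 libraries numbered 5. Control replicate 5 reached 13942 CPM and RhoA het replicate 5 reached 12532 CPM, against 4854 to 10198 CPM elsewhere. Not every marker of that list followed. Dcn was at 287.0 and 537.5 CPM in these libraries, against 473.1 to 2037 CPM elsewhere. The part of dividing, differentiating, fibre or fibro-adipogenic RNA in the level of Myog and Mymk was not tested.

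**Figure D4:**
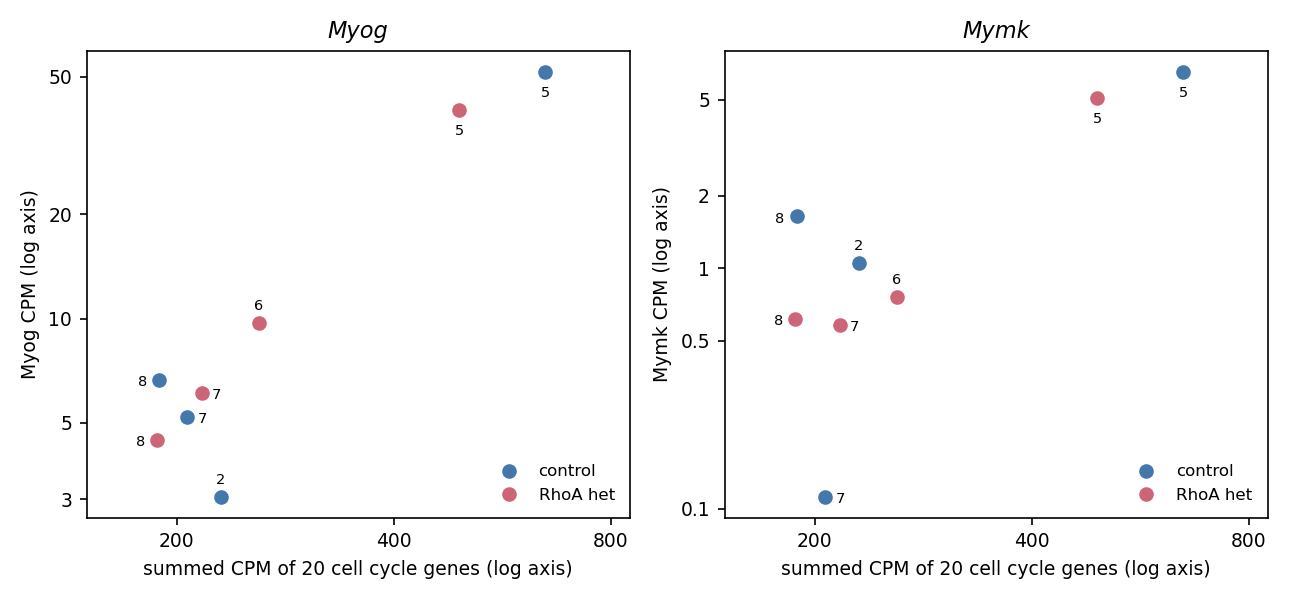
CPM of Myog (left) and Mymk (right) against the summed CPM of 20 cell cycle genes in each library, on log axes, with replicate numbers beside the points. Both libraries numbered 5 lie at the upper right in both panels (493.3 CPM or more of cell cycle genes), and the other 6 show no common order for Mymk.

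Mef2c varied along with markers of another cell type, the mural cell. Its highest values, 46.7, 33.6 and 33.4 CPM, came from RhoA het replicates 8 and 6 and control replicate 8, and the same libraries had the highest sums of 9 mural (vessel wall) markers, at 2529, 1745 and 1356 CPM against 856.6 to 1174 in the others. Median r of Mef2c with the single mural genes was 0.75 (9 of 9 positive). With the single endothelial genes it was 0.46 (11 of 12 positive), and with all genes with a symbol it was -0.0045. The endothelial sum was highest in RhoA het replicate 6 (1153 CPM) but was 262.5 and 174.9 CPM in the libraries numbered 8, inside the range of the others. Without RhoA het replicate 6 the log2 fold change of Mef2c was 0.55, without RhoA het replicate 8 it was 0.27, and without control replicate 8 it was 1.29. The part of mural or endothelial RNA in the level of Mef2c was not tested. Myf6, which fibres also make, had a positive r with 17 of 17 myofibre genes. The median was 0.41 over 8 libraries and 0.72 over the 6 without number 5. With the endothelial genes its r was positive for 12 of 12, with medians of 0.61 and 0.65. Myf5 also had a positive r with 15 of 17 myofibre genes, with a median of 0.53 over 8 libraries. Its highest levels, 3.29 CPM in control replicate 7 and 2.89 CPM in RhoA het replicate 6, went with myofibre sums of 378.4 and 684.1 CPM, while control replicate 5 had 1.39 CPM of Myf6 and the highest sum, 737.6 CPM. The part of fibre or endothelial RNA in the level of Myf6 was not tested.

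The genes whose log2 CPM most resembled each factor over the 8 libraries were listed, with the 3 highest Pearson r taken from 15372 genes, so that high values are partly the product of the search. For Myog they were Pclaf (r 1.00, rho 1.00), which encodes a partner of the replication clamp PCNA, Knl1 (0.99, rho 0.98), a kinetochore scaffold, and Kif22 (0.99, rho 0.98), a kinesin of chromosome movement. Without the libraries numbered 5 these r were 0.98, 0.98 and 0.92. For Mymk they were Ckap4 (0.99), Gm9774 (0.98) and B3glct (0.97), and for Mef2a Tenm3 (0.99), Rc3h1 (0.98) and Ube3a (0.98). Myf5 went with G0s2, Apobec3 and Enpp4 (0.97 to 0.96) and Myod1 with Tpd52l1 (0.96), Por (0.94) and Sar1a (0.93). Mef2c was closest to Map3k7cl, Tinagl1 and Slc31a2 (0.96 to 0.95), Mef2d to Pak1 (0.98), Syngr4 (0.96) and Khdrbs1 (0.96), and Myf6 to Oas1b (0.96), Gga1 (0.95) and Mocs1 (0.95). The points share their library depth and composition, and each r is a description.

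Among the partners and regulators of the myogenic factors (E proteins, Id inhibitors, Eya, Pitx and Pax factors and others), 36 of 38 genes were tested and none passed an adjusted p of 0.05 in edgeR in either direction. At an unadjusted p under 0.05 there was 1 higher and 1 lower, 5.56% of those tested against 2.38% of all genes, and with the block 1 of 35 against 5.26%. The median log2 fold change was 0.062, against -0.00070 for all genes tested. Id4, a helix-loop-helix inhibitor, was at 3.88 ± 0.162 CPM in control and 5.91 ± 0.926 in RhoA het (SD, n = 4 each), with log2 fold change 0.61 (SE 0.19). Tcf4, an E protein that pairs with the myogenic factors, was at 211.4 ± 5.68 and 243.1 ± 16.1 CPM, with log2 fold change 0.20 (SE 0.10). Pax7, the stem cell factor upstream of Myf5 and Myod1, was at 129.8 ± 30.5 and 91.4 ± 13.0 CPM, with log2 fold change -0.51 (SE 0.18). The groups of these 3 genes did not overlap, in a list where 3 of 36 did so against 1.81% of all genes. Over all 8 libraries the adjusted p of each was 1 in edgeR. With the block, Pax7 had a log2 fold change of -0.65 (SE 0.12, adjusted p 0.143 in edgeR), Id4 one of 0.52 and Tcf4 one of 0.13. Six5, a homeobox factor, gave a log2 fold change of -0.54 (SE 0.37) with overlapping groups.

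The partners and regulators of Mef2, such as class IIa histone deacetylases, kinases and calcineurin subunits, were all tested (20 of 20). None passed an adjusted p of 0.05 in edgeR, and 0 had an unadjusted p under 0.05, against 2.38% of all genes. With the block 2 of 20 had an unadjusted p under 0.05, both lower (10%, against 5.26% of all genes). The median log2 fold change of the 20 genes was 0.091. The smallest p belonged to Camk2g, a calcium-dependent kinase (0.41, SE 0.24), and Ppp3ca, a calcineurin catalytic subunit (0.17, SE 0.11), on the higher side. On the lower side it belonged to Nfatc2 (-0.21, SE 0.21), a calcineurin-dependent factor that promotes growth of young fibres, and Vgll2 (-0.17, SE 0.23), a TEAD cofactor.

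Of the wider fusion machinery, 43 of 47 genes were tested, 0 passed at an adjusted p of 0.05 in edgeR, and 2 higher and 1 lower had an unadjusted p under 0.05 (6.98%, against 2.38% of all genes), with a median log2 fold change of 0.027. With the block, 5 higher and 3 lower of 43 did so (18.6%, against 5.26% of all genes). Jam3, a junctional adhesion molecule, was at 48.8, 55.5, 49.5 and 48.4 CPM in the control libraries (2, 5, 7, 8) against 45.9, 39.96, 40.1 and 42.3 CPM in the RhoA het libraries (5, 6, 7, 8). Its groups did not overlap, and the log2 fold change was -0.27 (SE 0.11, adjusted p 1 in edgeR). Jam2, a related adhesion molecule also found on endothelium, gave a log2 fold change of 1.34 (SE 0.51), but 57.8 CPM in RhoA het replicate 6 exceeded the 10.8 to 20.6 CPM of the other RhoA het libraries, and this library had the highest endothelial sum. Arhgap26, which acts on RhoA and is known in myoblast fusion, had 0.53 (SE 0.22), and the adhesion molecule Cdh2 had -0.38 (SE 0.25).

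The early differentiation genes, targets of the myogenic factors, gave 0 of 40 tested genes past an adjusted p of 0.05 in edgeR, 1 lower at an unadjusted p under 0.05 (2.50%, against 2.38% of all genes), and a median log2 fold change of -0.018. With the block, 1 higher and 9 lower of 40 had an unadjusted p under 0.05 (25%, against 5.26% of all genes), and the median was -0.22. The gene that was lower over all 8 libraries was Tnnt1, the slow troponin T, at 20.8 ± 4.84 CPM in control and 13.6 ± 2.75 in RhoA het (SD, n = 4 each), with log2 fold change -0.62 (SE 0.21). Myh8, the perinatal myosin, had -1.43 (SE 0.89), and Lmod3 and Myom1, both of the sarcomere, had 0.72 (SE 0.42) and 0.61 (SE 0.37). Within the pairs, with the number as a block, 1 gene of this list passed, the skeletal actin gene Acta1 (log2 fold change -1.32, SE 0.15, adjusted p 0.0276 in edgeR). For Acta1 the fit of all 8 libraries gave -0.050 (SE 0.86), and RhoA het replicate 6, which the pairs leave out, was at 247.2 CPM, close to the highest library (254.6 CPM in control replicate 5). Acta1 is also a marker of muscle fibres, whose summed level was lower in RhoA het than in control in each of the pairs 5 (737.6 and 359.0 CPM), 7 (378.4 and 176.8 CPM) and 8 (215.4 and 144.6 CPM). In RhoA het replicate 6 this sum was 684.1 CPM. With the block, 2 myofibre genes passed an adjusted p of 0.05, both lower (Acta1 and Atp2a1), and 13 of 16 were lower at an unadjusted p under 0.05. The part of fibre RNA in this change was not tested.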

How the data were processed

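RNA of 8 libraries was analysed from 2 deposited tables. Per the file headers, the authors counted fragments per gene with featureCounts 1.6.4 (paired ends, exon features) against GENCODE mouse release 34 on mm39, with no strand option; per the submitters' processing notes, cutadapt and STAR were used before. The deposited TPM equalled counts per gene length scaled per library (largest relative difference 2e-14). The labels' protocols give Trizol RNA and a template-switching, low-input kit. The counting command named 10 alignment files, of which 8 are in the table; the others were not analysed here. Symbols came from a GENCODE release 21 table (51884 of 57180 genes); its coordinates were not used, and promoter sequences are RefSeq's on GRCm38.p6.

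Genes were filtered by edgeR's filterByExpr (15660 kept), scaled by TMM and compared by quasi-likelihood with no covariate, all 8 libraries sharing 1 fit (edgeR 4.0.16 in R 4.3.3). Standard errors were derived from the F statistic; log2 CPM used a prior count of 2. Single genes also had a two-sided exact permutation test. Replicate numbers 5, 7 and 8 occur in both groups' titles. Deviations from group means over 15660 genes correlated at 0.544, 0.231 and 0.488 within these numbers. These libraries were therefore treated as pairs on the basis of the data. Libraries of unlike number were not compared in this way, and the labels do not explain the numbers. Libraries of 1 group all differed by more than counting error (lowest chi-square over its degrees of freedom 43.0).

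Alternatives were DESeq2 size factors, upper-quartile factors and total counts in edgeR, unfiltered genes, genes averaging 10 or more counts, DESeq2 1.42.0 (Wald), limma 3.58.1 on log2(TPM + 1) and log2(TPM + 0.1), the replicate block, the same 6 libraries without it, and leaving out each library. Leaving out both libraries numbered 5 was chosen after seeing the data. The 9 genes and all lists were chosen with earlier results of these data known. Named genes were the 9 and the 2 with the smallest p per direction from each pathway list. The 3 most alike to each factor were also named, as were Rhoa and Pax7. Acta1, Atp2a1, Chrnd, Chrna1, Chrnb1, Des, Cdkn1a and Dcn were added after their values were seen.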

Additional observations from a re-analysis of the deposited data

Results flagged for a closer look

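A library stood apart within its group of 4 in 3 of 18 groups examined by Dixon's ratio at its 95% critical value, where chance gives about 0.9. All 3 were libraries numbered 5. Myog was at 51.6 CPM in control replicate 5, with the nearest control library at 6.66 CPM, and at 40.1 CPM in RhoA het replicate 5, with the nearest at 9.73 CPM. Mymk was at 5.11 CPM in RhoA het replicate 5, with the nearest at 0.759 CPM. Mymk in control replicate 5, at 6.54 CPM, gave a ratio of 0.762, under the critical value.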

How the results depend on the processing

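None of the 8 tested genes was called under any of the 19 alternatives that gave it an adjusted p, which lay between 0.854 and 1; DESeq2 gave none for Myog. Over all genes the number called was 0 except with the replicate block, which gave 2 genes, and for the pathway lists the block gave 1, Acta1; it changed no other call. Myod1, Mef2c and Mef2d kept their direction in every alternative, from -0.53 to -0.14, 0.11 to 1.29 and -0.22 to -0.018 on the log2 scale, and leaving out single libraries gave -0.53 to -0.14, 0.27 to 1.29 and -0.22 to -0.055. Leaving out single libraries gave -0.051 to 0.76 for Myf5, -1.30 to 1.597 for Myog, -0.40 to 0.46 for Myf6, -0.084 to 0.29 for Mef2a and -1.83 to 0.93 for Mymk, so these directions are not fixed. Other reversals were Myf5 at -0.17 in the 6 libraries without the replicate block, Myog at 0.28 with limma on log2(TPM + 1), 0.32 on log2(TPM + 0.1) and 0.43 without both libraries numbered 5, Myf6 at 0.077 and 0.11 in the same limma fits, and Mymk at 0.038 with limma on log2(TPM + 0.1). Without the filter Mymx had 0.42 (SE 1.31). Depth limits Myf6, Mymk and Mymx, with as few as 20, 3 and 0 fragments in a library.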
